A study of Mus musculus with 15 samples.

Results

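Primary mouse alveolar type II (ATII) cells were exposed for 24 h to β-aminopropionitrile (BAPN) at 1 mM or to its vehicle, phosphate-buffered saline, and their RNA was profiled on 8 single-colour microarrays, 4 per treatment. These 8 arrays, taken by the labelled cell type and treatment, were 8 of the 15 of the series; the other 7 held lung fibroblasts, 4 with vehicle and 3 with BAPN. Before exposure the ATII cells had been kept for 3 days at an air-liquid interface, where they formed a monolayer; the fibroblasts had been passaged and then starved for 24 h. The question, as the series title frames it, was whether added BAPN changes gene expression in these cells. The sources used here give no strain, sex or age of the mice. They also leave unstated whether the 4 samples of a group were separate animals or cultures. The variation behind the p-values is then possibly only technical. The limma p-values and intervals below use a spread pooled over all 15 arrays, fibroblast arrays included. Every non-control probe entered the comparison: of 55681 such probes 55212 were used, and 32043 features, 17696 of them with a gene symbol, were bright enough to be tested. A feature is a gene, read from its brightest probe, or a probe without a symbol.

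BAPN blocks the lysyl oxidases irreversibly. These copper-dependent enzymes oxidise lysines of collagen and elastin outside the cell so that these proteins can be cross-linked. It acts on the enzyme's activity and is widely used to block matrix cross-linking. ATII cells are the surfactant-producing cells of the alveolus: they store surfactant in lamellar bodies, organelles related to lysosomes, and are progenitors of the flat alveolar type I cells.

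Levels below are log2 intensities set against each array's 75th percentile, so a level of 0 marks that percentile and a difference of 1 is 2-fold. Between 65.2% and 71.2% of spots were well above background on the 8 arrays, no spot was saturated, and the share did not separate the treatments (exact permutation test, two-sided, p = 0.714; the smallest p that 4 against 4 arrays allow is 0.0286). The arrays lay on 2 slides: slide 1 held vehicle replicates 1 and 3 and BAPN replicates 1, 3 and 5, and slide 2 held vehicle replicates 2 and 4 and BAPN replicate 4. BAPN replicate 4 stood apart from the other 7 arrays, with a mean correlation of 0.982 with them against 0.987 to 0.992 for the rest. Values without it, or within each slide, are therefore given beside many of the results that they move, but not beside all. BAPN replicate 5 is a replacement array that its own labels place in this group.

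The labelled cell type was checked against marker genes. Of 20 surfactant and ATII markers, 17 were well above background on all 8 arrays, among them Sftpc, which encodes surfactant protein C, at a level of 0.93 ± 0.64 (SD, n = 4) with vehicle and 1.09 ± 0.86 (SD, n = 4) with BAPN. The other surfactant protein genes were dimmer than Sftpc, with vehicle means of -0.13 for Sftpd, -1.80 for Sftpb and -5.44 for Sftpa1. The ATII transcription factor gene Nkx2-1 had -1.68. Sftpa1 was well above background on 4 of the 8 arrays and Cd36 on 5. Slc34a2, the phosphate transporter of ATII cells, was well above background on none of the 8. The cultures also gave signal for other cell types: of 20 fibroblast and smooth muscle markers, 19 were well above background on all 8 arrays, and of 20 macrophage and leukocyte markers 15. The summed linear intensity of the fibroblast list ran from 1098 to 1400 times the 75th percentile with vehicle and from 1227 to 1524 with BAPN, that of the macrophage list from 30.7 to 47.5 and from 33.6 to 41.1, and that of the ATII list from 102 to 119 and from 107 to 125. The ranges of the treatments overlapped in all 7 cell type lists summed in this way. Linear sums are set mostly by the brightest members, so they say little about the dimmer ones. With vehicle these were Tagln (level 8.87) and Acta2 (8.57) for fibroblasts, Itgam (4.56) for macrophages, and Ctsh (4.83) and Fabp5 (4.54) for ATII cells. In such bulk RNA, fewer cells of a type and less RNA per cell cannot be told apart.

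No feature was called different between BAPN and vehicle in ATII cells (limma, Benjamini-Hochberg adjusted p under 0.05; 0 of 32043, or 0% of features; smallest adjusted p 0.216). At an unadjusted p under 0.05 there were 3346 features, 10.4% of those tested, of which 1724 (5.38%) had the higher mean with BAPN and 1622 (5.06%) the lower. Dropping any single ATII array of slide 2 left 1632 to 1854 of the 32043 features, the fewest when BAPN replicate 4 was dropped. Dropping any single ATII array of slide 1 left 3038 to 4227. The size of this count thus depended on each ATII array of slide 2. In 2983 features, 9.31%, the 4 BAPN values lay entirely to one side of the 4 vehicle values, 1028 of them (3.21%) above and 1955 (6.1%) below. The median log2 change of all features was -0.003, and 49.5% lay above 0. The other ways of normalizing, filtering and fitting gave counts of 0 to 3 over both slides and are listed with the limits at the end.

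How large a change could have been missed differed with brightness. The 95% interval of the change lay inside 2-fold for 69.8% of features and inside 1.5-fold for 44.2%. With features ordered by level and split into 4 bins of equal size, 33.2% of the dimmest bin had an interval inside 2-fold, then 61.0% and 87.7%, and 97.5% of the brightest. Over the same bins the median standard error was 0.37, 0.25, 0.16 and 0.13. Estimated changes over 2-fold were correspondingly found mostly among dim features, 710 in the dimmest bin and 19 in the brightest.

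**Figure D1:**
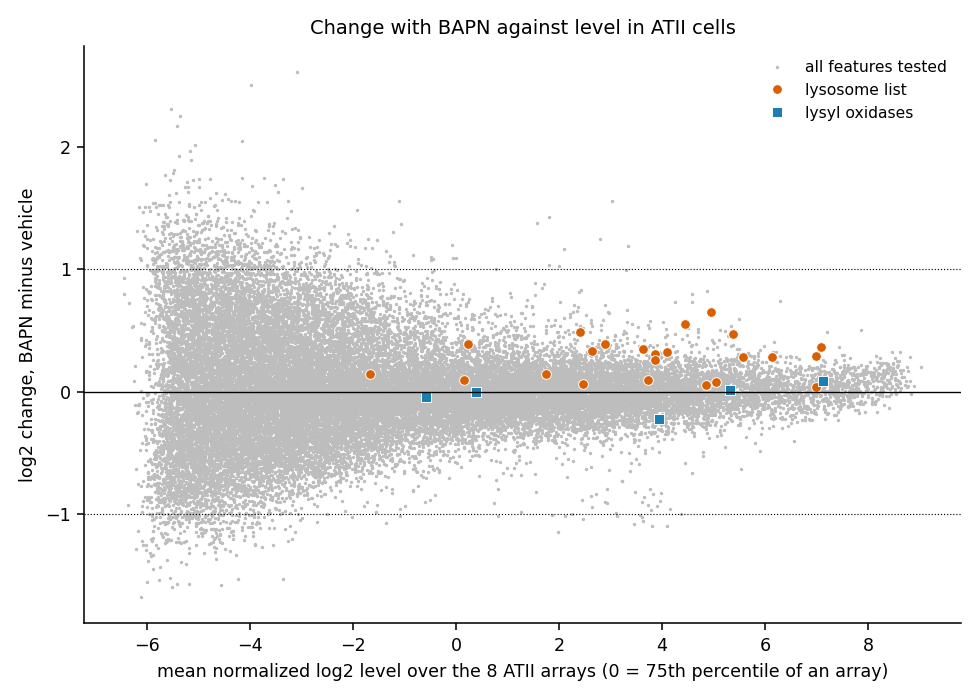
Log2 change with BAPN (BAPN minus vehicle, n = 4 arrays each) against the mean normalized log2 level over the 8 ATII arrays, one grey point per feature tested (32043), with the lysosome list and the lysyl oxidases marked and dotted lines at 2-fold. The cloud narrows to the right; 710 features of the dimmest of 4 bins by level and 19 of the brightest exceed 2-fold, and all 23 lysosome genes lie above 0.

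The 5 lysyl oxidases, the enzymes BAPN inhibits, were tested as transcripts and none was called. Lox, the founding member, had levels of 3.92, 4.00, 4.09 and 4.20 in vehicle replicates 1 to 4 and of 3.84, 3.97, 3.87 and 3.64 in BAPN replicates 1, 3, 4 and 5. The groups overlapped, since the BAPN value of 3.97 exceeded the lowest vehicle value. The log2 change was -0.22 (95% interval -0.54 to 0.10; limma adjusted p = 0.502), and the whole interval lay inside 1.5-fold.

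Loxl1, which cross-links elastin, had levels of 5.12, 5.48, 5.19 and 5.47 with vehicle and of 5.20, 5.39, 5.40 and 5.35 with BAPN. Every BAPN value lay inside the vehicle range, and the log2 change was 0.02 (95% interval -0.29 to 0.33). Loxl2, which acts on basement membrane collagen, had 6.80, 7.20, 7.20 and 7.12 with vehicle and 6.89, 7.08, 7.55 and 7.18 with BAPN, the highest value being that of BAPN replicate 4. Its change was 0.09, with a wide interval from -0.72 to 0.89. That interval rests on the spread pooled with the fibroblast arrays. Within the ATII groups the SD of Loxl2 was 0.19 with vehicle and 0.28 with BAPN. Loxl3 had a change of 0.00 (95% interval -0.24 to 0.24) and overlapping groups. Loxl4 had a change of -0.04 (95% interval -0.48 to 0.39), and its groups overlapped too. The limma adjusted p of Loxl1 to Loxl4 ran from 0.937 to 0.999. Of the 5 genes 3 had an estimate at or just above 0, and without BAPN replicate 4 none had.

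Copper-handling genes, with amine oxidases such as Maoa and Maob in the same list, were examined because lysyl oxidases need copper. Of 19 tested, 13 had a change above 0, with a median of 0.11 (0.06 without BAPN replicate 4), against 48.5% of all features with a symbol. None was called; 3 of the 19 had an unadjusted p under 0.05 and the higher mean, where 3.89% of features with a symbol did, and 0 with the lower mean, where 4.67% did. Mt1, a metallothionein that binds copper and zinc, had levels of 5.92, 5.96, 5.76 and 6.04 with vehicle and of 6.77, 6.41, 6.81 and 6.68 with BAPN. The groups did not overlap. Its log2 change was 0.74 ± 0.18 (SE; limma adjusted p = 0.461), with 0.77 on slide 1 and 0.81 on slide 2, and it was 0.03 in fibroblasts (difference between cell types, limma adjusted p = 0.239). The other metallothionein, Mt2, had a log2 change of 0.54, and Atox1, the copper chaperone of the secretory pathway, one of 0.38 with non-overlapping groups. Atp7b, a copper-exporting pump, had a change of -0.45, and Sod1, a copper enzyme of the cytosol, one of 0.06.

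**Figure D2:**
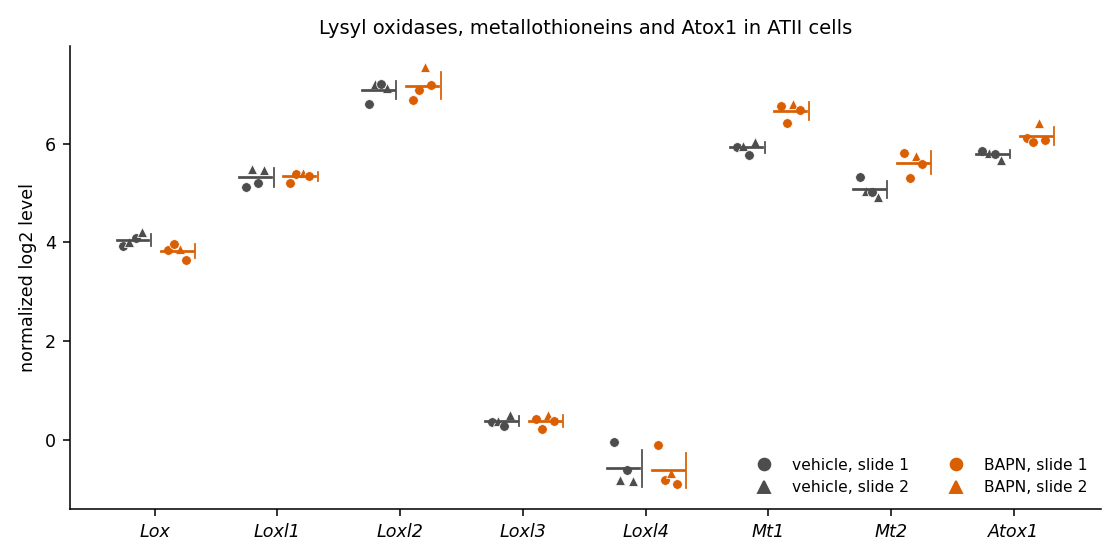
Normalized log2 levels (0 is an array's 75th percentile) of the lysyl oxidases, the metallothioneins and Atox1, one point per ATII array, with each group's mean as a horizontal line and its SD (n = 4) as the vertical bar beside it; circles are arrays of slide 1 and triangles of slide 2. Vehicle and BAPN points intermingle for the lysyl oxidases, and for Mt1 the lowest BAPN value, 6.41, lies above the highest vehicle value, 6.04.

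The features with a symbol of smallest unadjusted p were named in each direction, since none was called; for all of them the limma adjusted p was 0.216 or more. Uap1l1, a gene related to the enzyme that makes UDP-N-acetylglucosamine, had levels of 0.65, 0.58, 0.93 and 1.35 in vehicle replicates 1 to 4 and of 1.86, 2.11, 2.77 and 2.28 in BAPN replicates 1, 3, 4 and 5. Every BAPN value was above every vehicle value. The log2 change was 1.38 ± 0.20 (SE; limma adjusted p = 0.216), a 2.60-fold difference, with 1.30 on slide 1 and 1.80 on slide 2 and 1.21 without BAPN replicate 4. Its probe lies at chr2:25217225-25217615 on the minus strand (mm9, the build of the array design).

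Renbp, which interconverts N-acetylglucosamine and N-acetylmannosamine, had levels of 1.00, 1.14, 1.45 and 1.58 with vehicle and of 2.01, 2.25, 2.63 and 2.41 with BAPN. All BAPN values were again the higher, with a log2 change of 1.03 ± 0.17 (SE; limma adjusted p = 0.338; probe at chrX:71167691-71167750, mm9, minus strand). Vat1, a membrane protein of the quinone oxidoreductase family, had 2.63, 2.56, 2.65 and 2.77 with vehicle and 3.25, 3.23, 3.48 and 3.24 with BAPN, groups that were both tight and apart. Its log2 change was 0.65 ± 0.10 (SE; limma adjusted p = 0.277), or 1.56-fold, with 0.60 on slide 1 and 0.81 on slide 2 (probe at chr11:101320428-101320487, mm9, minus strand). Where the test was limited to the 11128 features above the 75th percentile, Uap1l1, Vat1 and Renbp were called, with limma adjusted p of 0.0239, 0.0239 and 0.0388.

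Other genes of the higher-mean group encode lysosomal proteins. Atp6v0a1, a membrane subunit of the proton pump that acidifies lysosomes, had levels of 2.56, 2.58, 2.74 and 2.59 with vehicle and of 3.12, 3.22, 3.43 and 3.31 with BAPN. The groups did not overlap, and the log2 change was 0.65 ± 0.12 (SE; limma adjusted p = 0.461; probe at chr11:100924969-100925028, mm9, plus strand). Dpp7, a dipeptidyl peptidase of lysosomes, had 1.22, 1.36, 1.5 and 1.90 with vehicle and 2.03, 2.40, 3.05 and 2.61 with BAPN. Its highest vehicle value lay just under its lowest BAPN value, and its log2 change was 1.03, with 0.98 on slide 1 and 1.42 on slide 2. Neu1, the lysosomal sialidase, had 3.12, 2.93, 3.17 and 3.31 with vehicle and 3.51, 3.61, 3.98 and 3.63 with BAPN. These groups were apart as well, with a log2 change of 0.55, and 0.44 on slide 1 against 0.86 on slide 2.

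The remaining genes of this direction have other roles. Fabp3, a carrier of fatty acids in the cytosol, had levels of 1.14, 1.30, 1.60 and 2.03 with vehicle and of 2.14, 2.58, 3.23 and 2.79 with BAPN, a log2 change of 1.17. Vegfb, a growth factor of the VEGF family, had 0.34, 0.26, 0.26 and 0.30 with vehicle and 0.85, 0.78, 1.07 and 1.13 with BAPN. The vehicle values of Vegfb were nearly the same on all 4 arrays, and its log2 change was 0.67. Itgbl1, a secreted protein related to the integrin beta subunits, was dim, from -5.21 to -4.43 with vehicle and from -3.90 to -3.20 with BAPN, with a log2 change of 1.21. Lrrc27, a leucine-rich repeat protein, had a log2 change of 0.64, with 0.38 on slide 1 and 1.08 on slide 2.

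Several of these genes varied together from array to array within the groups. After subtraction of the group means, the levels of Uap1l1 over the 8 arrays correlated with those of Fabp3 at r = 0.98, Dpp7 at 0.97, Renbp at 0.94, Neu1 at 0.94 and Vat1 at 0.90, and less with those of Atp6v0a1 (0.69), Vegfb (0.48) and Lrrc27 (0.38). Within the vehicle group, replicates 1 and 2 had the lower values of Uap1l1, Dpp7 and Fabp3 and replicate 4 the highest; within the BAPN group, replicate 1 had the lowest and replicate 4 the highest. Some genes whose mean differed little by treatment followed the same order. Dgat2, an enzyme of triglyceride synthesis, had r = 0.99 with Uap1l1 and a log2 change of -0.02. Stc2, a secreted glycoprotein, had r = 0.99 and a change of -0.11. Both were picked for the highest r with Uap1l1 among the 15618 features with a symbol well above background on all 8 arrays. Values of r this high follow in part from that choice. The points share array, scaling and slide, so these correlations describe the 8 arrays only.

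Among the genes with the lower mean, Brca1 and Epx were admitted to the test through their vehicle arrays alone, so only their values are given. Brca1, a DNA repair gene, was well above background on all 4 vehicle arrays, at -4.76, -5.04, -5.16 and -5.14, and on none of the 4 BAPN arrays, where its measured values were -6.29, -7.34, -6.00 and -6.18. The difference is a bound, at least 1.42-fold lower with BAPN when the dim values are set to the lowest signal that counts as well above background, or to the probe's own where that is higher. Epx, eosinophil peroxidase, was well above background on 3 vehicle arrays, among values of -5.29, -4.98, -5.32 and -5.51, and on no BAPN array, which gives a bound of at least 1.20-fold lower.

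Several other genes with lower means were measured on both sides. Srprb, a subunit of the receptor that docks ribosomes at the endoplasmic reticulum, had levels of 1.79, 1.62, 1.75 and 1.78 with vehicle and of 1.17, 1.47, 1.08 and 1.38 with BAPN. Every BAPN value was the lower, and the log2 change was -0.46 ± 0.10 (SE; limma adjusted p = 0.461), while a dimmer Srprb probe had one of -0.08. Ddx51, a helicase of ribosome assembly, had 2.10, 2.04, 2.16 and 2.05 with vehicle and 1.79, 1.71, 1.70 and 1.68 with BAPN, a log2 change of -0.37 between tight groups. Apaf1, which forms the apoptosome, had 0.36, 0.32, 0.02 and 0.41 with vehicle and -0.52, -0.05, -0.37 and -0.26 with BAPN, a log2 change of -0.57. Nanos1, an RNA-binding protein, had a log2 change of -0.52, from values of -3.13 to -3.03 with vehicle to values of -3.69 to -3.55 with BAPN; a dimmer Nanos1 probe had one of -0.11. Stmn4, a stathmin that binds tubulin, had a log2 change of -0.67, and the kinase Pim2 one of -0.62. The lower-mean group also held Gm6340 (-0.72), Lrr1 (-0.51, and -0.25 on a dimmer probe), Cep78 (-0.38), Ccl24 (-1.10) and Ear10 (-0.50). Ccl24 was well above background on 3 of 4 BAPN arrays. Platr10 was admitted to the test through its vehicle arrays, so only its values are given. They were -4.88, -4.59, -5.03 and -4.42 with vehicle and -5.36, -6.06, -6.07 and -5.31 with BAPN. Only 1 of those 4 BAPN arrays was well above background for it.

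**Figure D3:**
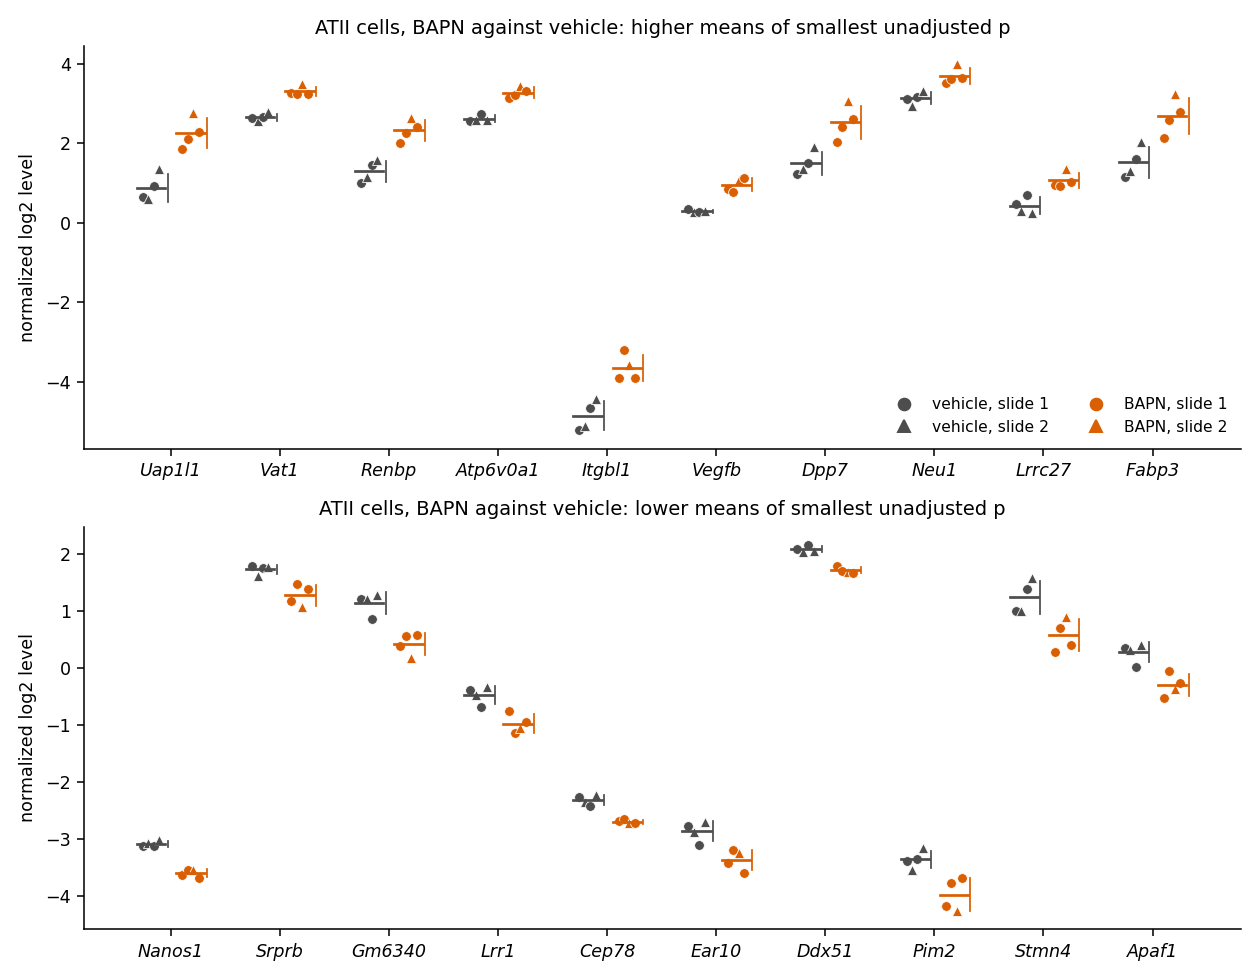
Normalized log2 levels (0 is an array's 75th percentile) of the 10 named genes of smallest unadjusted p with the higher mean under BAPN (upper panel) and of 10 named genes with the lower mean that were well above background on all 8 arrays (lower panel), one point per ATII array, with group means as horizontal lines and the SD (n = 4) as vertical bars; circles are arrays of slide 1 and triangles of slide 2. BAPN and vehicle points do not overlap for any of these genes, while no gene passes the adjusted threshold; BAPN replicate 4 gives the highest point of Uap1l1 at 2.77.

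Among 36 gene lists, chosen with earlier results of these data known, the lysosome list was the one in which every member had the higher mean with BAPN. All 23 of its genes had a log2 change above 0, from 0.04 (Gla) to 0.66 (Gaa), with a median of 0.30, whereas 48.5% of the features with a symbol lay above 0 with a median of -0.01. No member was called, and the members, read on the same 8 arrays, are not independent of each other. Within the groups the member Mcoln1 correlated with Uap1l1 at r = 0.99. It was picked because its r was among the highest of all genes ranked in this way. An unadjusted p under 0.05 with the higher mean was reached by 9 of the 23, where 3.89% of features with a symbol reached it, and 4 of the 23 had groups that did not overlap, where 3.02% did. No member had an unadjusted p under 0.05 with the lower mean, against 4.67% of features with a symbol, and none lay below the vehicle range without overlap, against 5.89%. The median was 0.24 on slide 1 and 0.41 on slide 2, and without BAPN replicate 4 it was 0.22 with 22 of 23 genes above 0; 4 genes then lay above and 0 below the vehicle range without overlap, against 3.53% and 7.95% of features with a symbol. In fibroblasts 14 of the 23 genes lay above 0 and the median was 0.10, and no member's difference between the cell types was called.

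Gaa, the acid alpha-glucosidase that degrades glycogen in lysosomes, had levels of 4.32, 4.53, 4.75 and 4.88 with vehicle and of 4.98, 5.19, 5.66 and 5.28 with BAPN. The lowest BAPN value lay just above the highest vehicle value, and the log2 change was 0.66 ± 0.17 (SE; limma adjusted p = 0.461). Grn, the precursor of the granulins, had 3.95, 4.09, 4.12 and 4.50 with vehicle and 4.52, 4.74, 4.92 and 4.71 with BAPN, a log2 change of 0.55, with 0.62 on each slide. The other members without overlap, named after their values were seen, were Lamp1 and Ctsd. Lamp1, an abundant lysosomal membrane glycoprotein, had 6.81, 6.85, 7.04 and 6.93 with vehicle and 7.14, 7.16, 7.58 and 7.19 with BAPN. Its log2 change was 0.36, with 0.24 on slide 1 and 0.69 on slide 2, and its value in BAPN replicate 4 was well above the other BAPN values. Ctsd, the aspartic protease cathepsin D, had a log2 change of 0.28.

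The other members had overlapping groups. The protective carboxypeptidase Ctsa had a log2 change of 0.47 and Mcoln1, a calcium channel of the lysosomal membrane, one of 0.39. Lipa, the acid lipase, had one of 0.39 and Lamp2, a lysosomal membrane glycoprotein, one of 0.33. Without BAPN replicate 4 these changes were 0.39 for Ctsa, 0.25 for Mcoln1, 0.25 for Lipa and 0.24 for Lamp2. Tfeb, the transcription factor known to bind promoters of lysosomal genes, had a log2 change of 0.14.

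Promoters of lysosomal genes are known to carry the CACGTG core that TFEB and related factors bind, so the RefSeq promoter windows, 250 bases before to 50 bases after each gene's start in GRCm38.p6, were searched for CACGTG on both strands (the motif is its own reverse complement) and for the longer TCACGTGA, every match of which also contains CACGTG. Windows were found for 18 of the 23 lysosome genes, of which 10 (55.6%) held CACGTG and 6 (33.3%) TCACGTGA. Over all 27025 promoters the shares were 8.1% and 1.1%, and over the 13838 tested genes with a window 10.3% and 1.7%. The stretches from 150 bases before to 1 base before the start are printed for 5 genes with matches, of the lysosome list and of lysosomal genes described above and below, 5′ to 3′ on the gene's strand from GRCm38.p6 (RefSeq), with each CACGTG in capitals. They are Lamp1 (chr8:13159011-13159160, plus strand), Mcoln1 (chr8:3500369-3500518, plus), Gaa (chr11:119267813-119267962, plus), Atp6v0b (chr4:117887330-117887479, minus) and Dpp7 (chr2:25356333-25356482, minus).
Lamp1: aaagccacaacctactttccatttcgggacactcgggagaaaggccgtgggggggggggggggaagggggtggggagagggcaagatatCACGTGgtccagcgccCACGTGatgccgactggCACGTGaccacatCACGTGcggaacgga
Mcoln1: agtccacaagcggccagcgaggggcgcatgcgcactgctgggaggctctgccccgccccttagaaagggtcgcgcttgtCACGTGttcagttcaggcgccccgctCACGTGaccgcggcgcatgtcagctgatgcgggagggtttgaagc
Gaa: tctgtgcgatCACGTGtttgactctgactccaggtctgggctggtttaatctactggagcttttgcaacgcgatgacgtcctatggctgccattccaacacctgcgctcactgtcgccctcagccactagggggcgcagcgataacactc
Atp6v0b: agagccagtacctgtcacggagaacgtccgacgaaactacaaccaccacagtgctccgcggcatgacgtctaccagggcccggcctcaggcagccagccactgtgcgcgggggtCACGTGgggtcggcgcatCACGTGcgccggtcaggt
Dpp7: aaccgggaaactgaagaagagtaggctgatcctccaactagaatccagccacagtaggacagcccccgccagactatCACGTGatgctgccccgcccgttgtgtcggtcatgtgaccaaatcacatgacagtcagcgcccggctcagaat

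The Lamp1 stretch holds 4 matches, while the Gaa and Dpp7 stretches hold 1 each. Inside the list, the median log2 change was 0.30 for the 10 lysosome genes with CACGTG and 0.29 for the 8 without. In the wider lysosomal lists described next, the medians with and without it were 0.24 and 0.12 for glycosidases and sulfatases (6 and 16 genes), 0.29 and 0.08 for peptidases (6 and 10) and 0.38 and 0.16 for membrane proteins (8 and 24). For the proton pump they were 0.20 and 0.22 (4 and 14). The lysosome, proton pump, glycosidase and sulfatase, peptidase and membrane lists were also pooled, without the list of lysosomal lipid and phosphate hydrolases. In that pool the 24 genes with CACGTG had a median of 0.29, with 91.7% above 0. The 68 without it had one of 0.15, with 73.5% above 0. These differences between genes with and without CACGTG were not tested. Across all tested genes with a window, the 1420 with CACGTG had a median log2 change of 0.01, with 52.5% above 0, and the 12418 without it one of -0.01, with 48.1% above 0. The 238 genes with TCACGTGA had a median of 0.04, with 61.8% above 0. Of the 10 higher-mean genes of smallest unadjusted p, 9 had a window and 1, Dpp7, held the motif. A match is a description of the letters in the window and no evidence of binding.

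Further lysosomal lists, drawn up after the values of the lysosome list were seen and partly sharing its members, give the same genes by role and are no independent support. Of 29 glycosidases and sulfatases, which strip sugars and sulfates, 25 had a change above 0, with a median of 0.20. Without BAPN replicate 4, 22 of them did, with a median of 0.14. With all arrays, 6 of the 29 lay above the vehicle range without overlap and 0 below it. Of features with a symbol, 3.02% and 5.89% did. Of 20 lysosomal peptidases, 16 were above 0, with Dpp7 at 1.03, the tripeptidyl peptidase Tpp1 at 0.46 and the carboxypeptidase Scpep1 at 0.45. Without BAPN replicate 4 these 3 genes had changes of 0.85, 0.35 and 0.30. Of 37 membrane proteins and transporters, 27 were above 0 with a median of 0.17; 8 lay above the vehicle range without overlap (3.02% of features with a symbol), among them the ATP-gated channel P2rx4 at 0.49 and the chloride transporter Clcn7 at 0.46, and 1 lay below it (5.89%), the channel Mcoln3 at -0.58, or -0.22 without BAPN replicate 4. No feature of these lists was called.

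The proton pump that acidifies these organelles had 24 measured subunit genes, of which 19 had a change above 0, with a median of 0.18. Of the 24, 7 lay above the vehicle range without overlap and 0 below it, where 3.02% and 5.89% of features with a symbol did. Atp6v0b, one of its membrane subunits, had levels of 3.58, 3.28, 3.39 and 3.60 with vehicle and of 3.87, 3.88, 4.21 and 4.06 with BAPN. All BAPN values were the higher, with a log2 change of 0.54 ± 0.13 (SE; limma adjusted p = 0.461) against -0.11 in fibroblasts. Among the soluble subunits Atp6v1f had a log2 change of 0.50, Atp6v1d of 0.44, Atp6v1c1 of 0.26 and Atp6v1e1 of 0.25. The lowest was Atp6v1e2 at -0.54 with overlapping groups, or -0.19 without BAPN replicate 4. Of 27 nutrient-sensing genes of the lysosomal surface, 22 were above 0 with a median of 0.09 (18 and 0.07 without BAPN replicate 4). The highest was the Rag GTPase Rragd at 0.79, with -0.03 on slide 1 and 1.78 on slide 2, followed by Fnip2 (0.68) and Flcn (0.64), partners in control of the Rag GTPases. The lowest was Lamtor2, a subunit of the complex that anchors the Rag GTPases, at -0.72 with overlapping groups. Fnip2 and Flcn had similar values in fibroblasts, 0.63 and 0.48.

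Further lists cover neighbouring processes; how they differ from the lysosomal lists was not tested. Of 29 autophagy genes 14 were above 0, with a median of -0.03, and Vmp1, needed to form autophagosomes, had a change of -0.35. Of 18 genes for sorting of lysosomal enzymes 12 were above 0, with a median of 0.05. Of 18 amino sugar genes 10 were above 0 with a median of 0.04 (-0.02 without BAPN replicate 4), so that Uap1l1, Renbp, the deaminase Gnpda1 (0.58) and the deacetylase Amdhd2 (0.43) stood beside genes such as Pgm3 at -0.18. Endosome and exocytosis genes had a change above 0 in 20 of 31, and genes of lysosomal lipid and phosphate hydrolases in 12 of 17, with medians of 0.09 and 0.08 (0.04 and 0.03 without BAPN replicate 4). In the endosome and exocytosis list 8 of 31 lay above the vehicle range without overlap and 0 below it. Of all features with a symbol, 3.02% and 5.89% did.

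The slides were also compared over all features. The change on slide 1 (3 BAPN and 2 vehicle arrays) and on slide 2 (1 BAPN and 2 vehicle arrays) had the same sign in 62.1% of the 32043 features (across features, which are not independent, Pearson r = 0.16 and Spearman rho = 0.29), and the spread of changes was 0.30 (SD over features) on slide 1 and 0.96 on slide 2. Tested alone, slide 2 called 5641 features, 17.6%, of which 2608 had the higher mean with BAPN, whereas slide 1 called 0. That slide 2 contrast rests on BAPN replicate 4 alone, with 3 residual degrees of freedom, and a deviation of this array and an effect of BAPN cannot be told apart there. Among the 17696 features with a symbol, 101 were over 1.5-fold higher with BAPN on both slides, 96 over 1.5-fold lower on both and 113 over 1.5-fold in opposite directions.

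**Figure D4:**
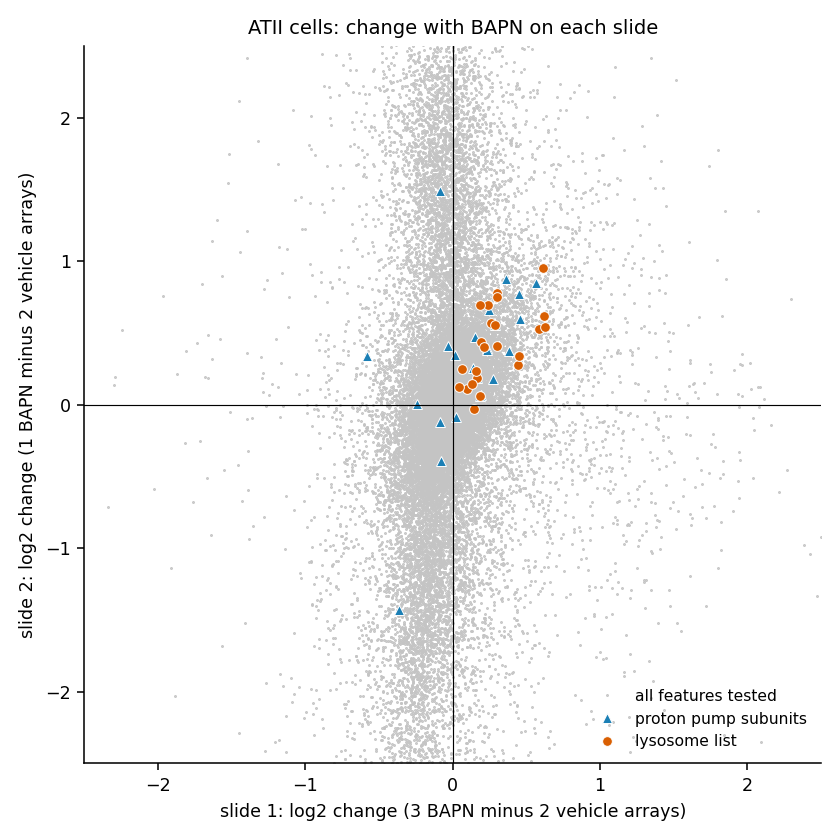
Log2 change with BAPN on slide 1 (3 BAPN minus 2 vehicle arrays) against slide 2 (1 BAPN minus 2 vehicle arrays), one grey point per feature tested, with the lysosome list and the proton pump subunits marked; 775 features fall outside the plotted range of 2.5. Slide 2 spreads more widely (SD 0.96 against 0.30), and the lysosome genes lie mainly in the upper right, with medians of 0.24 and 0.41.

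The epithelial programme of the cells gave no called feature. Of 19 surfactant and ATII genes tested 14 had a change above 0, with a median of 0.12, which was 0.26 without BAPN replicate 4 and 0.04 and 0.06 within slides 1 and 2. Its brightest members by level were Ctsh, a protease that processes surfactant protein, at 4.83 with vehicle and 4.98 with BAPN, and Fabp5, at 4.54 and 4.61. Fasn, fatty acid synthase, had a log2 change of 0.28 and Lpcat1, which makes surfactant phosphatidylcholine, one of 0.24. Of 16 type I cell markers 11 were above 0, with a median of 0.06 (0.12 without BAPN replicate 4, 0.01 and -0.02 within slides 1 and 2), and Cav1, the caveolin of type I cells, had levels of -1.17, -0.68, -0.74 and -0.83 with vehicle and of -0.51, -0.39, -0.21 and -0.34 with BAPN, a log2 change of 0.49 without overlap. Junction and keratin genes had 12 of 25 above 0 and a median of -0.005, but 21 of 25 and 0.09 without BAPN replicate 4. Airway markers had 10 of 12 above 0 with a median of 0.23, which was 0.44 without BAPN replicate 4. The median was -0.03 within slide 1 (5 of 12 above 0) and 0.002 within slide 2 (6 of 12). The lowest airway marker was Tppp3, at -0.50 with vehicle and -0.82 with BAPN. Of the 12, 0 lay above the vehicle range without overlap and 1 below it, against 3.02% and 5.89% of features with a symbol. The summed level of that list overlapped, 5.84 to 14.3 with vehicle and 7.59 to 21.2 with BAPN. Of 16 ion and water transport genes 9 were above 0, and the water channel Aqp4 had a change of -0.31.

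Genes of the matrix, whose cross-linking BAPN blocks, were centred near 0. The median log2 change was -0.02 for 17 collagens, -0.01 for 21 basement membrane genes and -0.02 for 17 elastic fibre genes, with 8, 9 and 8 above 0, and none of these 55 list entries was called. Without BAPN replicate 4 those medians were -0.08, 0.04 and -0.07. Of 16 genes of collagen modification 6 were above 0, with a median of -0.04 (-0.09 without BAPN replicate 4). Tgm2, a transglutaminase that cross-links proteins without lysyl oxidase, had levels of 5.09, 5.16, 5.30 and 5.23 with vehicle and of 5.75, 5.56, 6.07 and 5.77 with BAPN. The Tgm2 groups did not overlap, with a log2 change of 0.59, while P4ha1, a collagen prolyl hydroxylase, had one of -0.43. Among partners of lysyl oxidases 6 of 12 were above 0, with a median of 0.02 (-0.05 without BAPN replicate 4) and the tenascin Tnxb at 0.57. Matrix proteases and their inhibitors had 16 of 24 above 0 with a median of 0.09; the urokinase receptor Plaur had 0.27 and the gelatinase Mmp9 -0.47. Integrins had 9 of 13 above 0 with a median of 0.08.

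Signalling lists had medians from -0.11 to 0.13. TGF-beta targets had 8 of 22 above 0 and a median of -0.05 (-0.08 without BAPN replicate 4), with the receptor Tgfbr2 at -0.38. Growth factors and receptors had 5 of 22 above 0 with a median of -0.08, with Egfr at -0.34 and Fgfr1 at 0.37. In the Wnt, Notch and Hedgehog list 10 of 26 were above 0; Ptch1, the Hedgehog receptor, had 0.63 without overlap and the Wnt antagonist Sfrp2 -0.40. Inflammation genes had 7 of 23 above 0 with a median of -0.11 (-0.03 without BAPN replicate 4), immediate early genes 6 of 22 with -0.09, and interferon response genes 20 of 23 with 0.13, although without BAPN replicate 4 that median was 0.08 with 15 of 23 above 0.

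Metabolic and stress lists likewise held no called gene. Hypoxia and glycolysis genes had the smallest share above 0, 3 of 22, with a median of -0.09; 4 had an unadjusted p under 0.05 with the lower mean, where 4.67% of features with a symbol did. Within slide 2 the list had 11 of 22 above 0 and a median of 0.003. Pfkl, a phosphofructokinase, had levels of 2.14, 2.24, 2.36 and 2.33 with vehicle and of 1.75, 1.84, 2.07 and 1.78 with BAPN, a log2 change of -0.41 without overlap. Pdk1, a kinase that restrains pyruvate oxidation, had a change of -0.65 with overlapping groups. Cholesterol and fatty acid synthesis had 22 of 30 above 0 with a median of 0.10: Srebf1, a master regulator of lipid synthesis, had a log2 change of 0.42 without overlap.

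Unfolded protein response genes had 5 of 20 above 0 with a median of -0.08, against 0.21 and 18 of 20 in fibroblasts. Edem1, which directs misfolded glycoproteins to degradation, had levels of 2.98, 3.06, 3.1 and 3.13 with vehicle and of 2.56, 2.76, 2.60 and 2.61 with BAPN, a log2 change of -0.43. Its groups did not overlap, and its change in fibroblasts was 0.48 (difference between cell types, limma adjusted p = 0.153). The integrated stress response had 14 of 24 above 0, NRF2 and glutathione genes 16 of 26, respiratory chain genes 15 of 23, heat shock genes 9 of 13, p53 targets 12 of 20 and apoptosis genes 10 of 19, with medians from 0.01 to 0.06. Without BAPN replicate 4 the integrated stress response had 9 of 24 above 0 (median -0.06), the respiratory chain 7 of 23 (-0.008), p53 targets 10 of 20 (0.01) and heat shock genes 8 of 13 (0.02). Cell cycle genes had 8 of 29 above 0 with a median of -0.08, and xenobiotic metabolism 6 of 21 with -0.05. The cell cycle median was -0.01 within slide 1 (12 of 29 above 0) and -0.22 within slide 2 (4 of 29). Proteasome genes had 9 of 22 above 0, with the catalytic-core subunit Psmb2 at -0.59 without overlap and Psmb1 at -0.28. Of the remaining markers, those of fibroblasts had 10 of 20 above 0 (median 0.02, or -0.05 without BAPN replicate 4). Cthrc1 had a change of -0.50 and Lum one of -0.57. Among those above 0, Thy1 had a mean level of 4.28 with vehicle and 4.57 with BAPN, and Mgp 5.32 and 5.62. Macrophage markers had 8 of 18 above 0 and endothelial markers 7 of 10. The macrophage markers had 6 of 18 above 0 within slide 1 (median -0.11) and 12 of 18 within slide 2 (0.35).

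**Figure D5:**
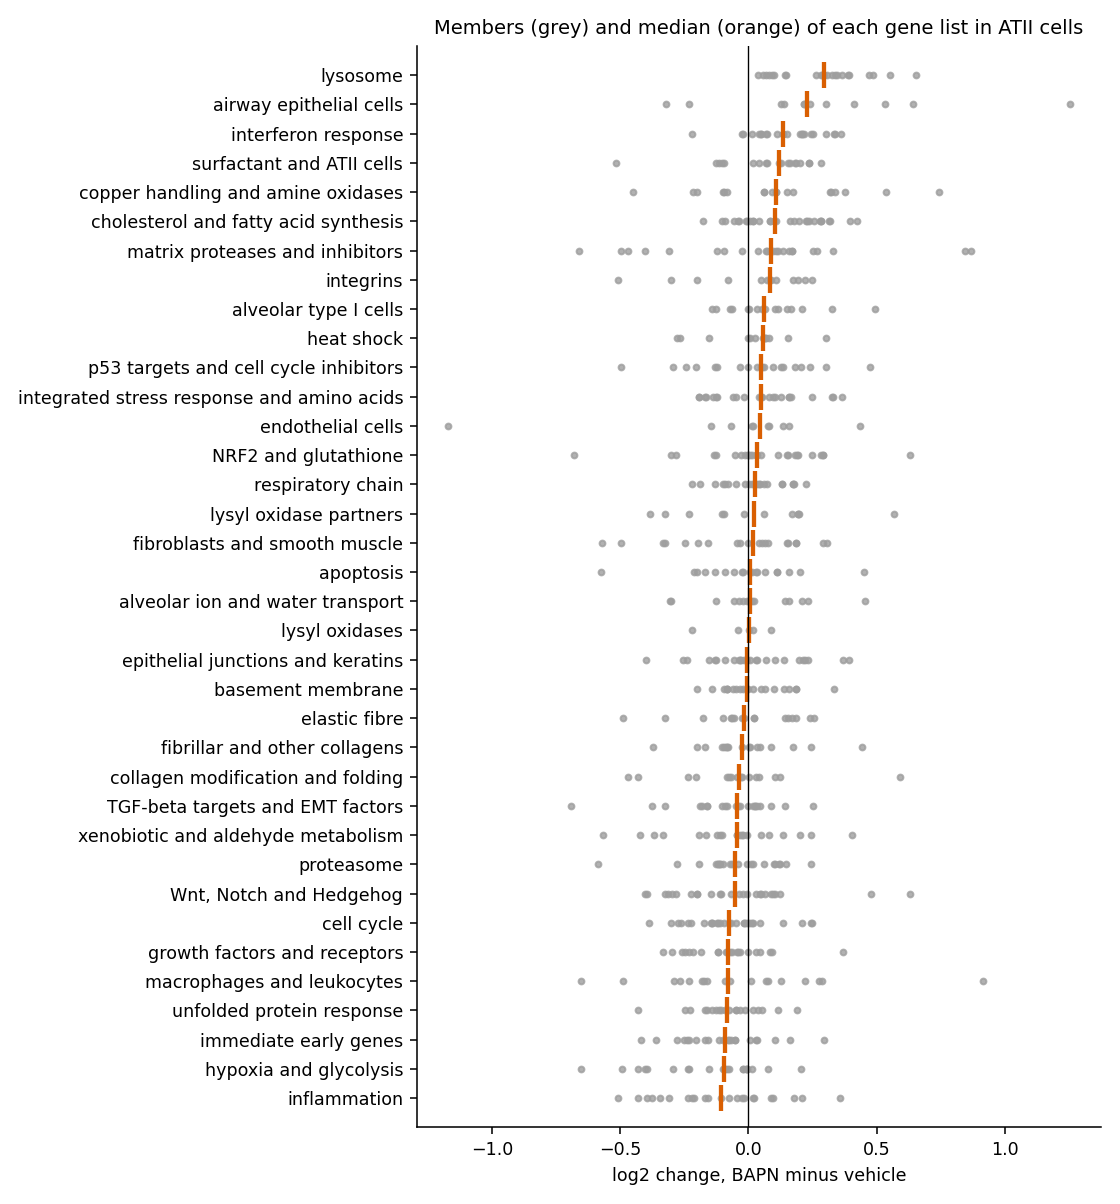
Log2 change with BAPN in ATII cells of the members of 36 gene lists, one grey point per gene tested and an orange tick at each list's median, lists ordered by median. Most medians lie within about 0.1 of 0; the lysosome list has the highest median, 0.30, with all members above 0.

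The response to BAPN was set against that in fibroblasts by the difference of the changes. One feature was called (0.00312% of those tested; limma, adjusted p under 0.05), and 4787 (14.9%) had an unadjusted p under 0.05. The called gene was Pnliprp1, which encodes a protein related to pancreatic lipase, named after its value was seen. Its log2 change in ATII cells was -0.03, so that the difference of 2.83 came from the fibroblast arrays. Uap1l1 had a change of 0.61 in fibroblasts (difference, limma adjusted p = 0.267), Vat1 one of -0.19, Renbp of 0.17, Dpp7 of 0.12, Vegfb of -0.02 and Fabp3 of 0.51. None of these differences was called.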

How the data were processed

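RNA of each sample, 0.1 ug labelled with Cy3, was hybridised to a single-colour Agilent array, per the labels' protocols. Per the file headers, Agilent Feature Extraction 10.7.3.1 produced the deposited intensity values, already background-subtracted and spatially detrended, the raw mean and background intensities and the 0 or 1 marks per spot; the array design is on mm9. The authors' deposited series table holds log2 values that are quantile normalized; its background step is not given in the sources used here.

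For each array, log2 of the processed intensity was taken and its 75th percentile among non-control spots subtracted to give levels. Spots marked as outliers were dropped and spots of a probe averaged. Probes were named by accession (27428), symbol (3483) or older symbol (507) in a RefSeq table of GRCm38.p6; 24263 had no symbol. Each gene was read from its brightest probe. Features well above background on at least 3 of the 8 ATII arrays were tested with limma 3.58.1 (R 4.3.3), with a mean for each of the 4 groups over all 15 arrays (11 residual degrees of freedom), eBayes and Benjamini-Hochberg adjustment at 0.05. The scripts were tested on simulated data; other steps used Python 3.11.15, pandas 2.3.3, numpy 2.4.6 and matplotlib 3.10.9. Precision is limited by the number of arrays.

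Named genes were the 10 of largest change past the threshold in each direction, filled with those of smallest unadjusted p; the 10 of smallest unadjusted p in each direction among features with a symbol well above background on all 8 arrays; the lysyl oxidases; and 2 per list by unadjusted p with the 2 brightest ATII markers. Further members were named after their values were seen. The members and lists were chosen with earlier results of these data known, and 10 of the lists after seeing these values. Alternatives were the scaling, background, filter, slide, spatial position, replicate block, probe rule, variance prior, the deposited table and leaving out each array. Sequences came from RefSeq, GRCm38.p6. No mm9 genome was used, so exons and UTRs under the probes are not given. Some genes that the rule names are not reported here.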

Additional observations from a re-analysis of the deposited data

Results flagged for a closer look

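Of 68 groups of 4 arrays checked for a sample far from the others, 3 had one; chance gives about 1 in 20. Vat1 had a level of 3.48 in BAPN replicate 4, against 3.23 to 3.25 in the other BAPN arrays, and its log2 change without that array was 0.58. Atp6v0a1 had a level of 2.74 in vehicle replicate 3, against 2.56 to 2.59 in the other vehicle arrays; that value still lay below every BAPN value. The median coefficient of variation between replicate spots was 8.04% in BAPN replicate 4, against 5.74% to 5.83% in the other BAPN arrays. The difference of the BAPN effect between ATII cells and fibroblasts was 2.83 for Pnliprp1 (limma adjusted p = 0.0436); quantile scaling, normexp background correction and the deposited table each called 0 features in that comparison.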

How the results depend on the processing

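The count of features called between BAPN and vehicle was 0 under quantile scaling, the deposited table, normexp background, no filter, features on all 8 arrays, every probe, the slide as a block, slide 1 alone, position correction and the ATII arrays alone, 3 above the 75th percentile and 2 with a trended robust prior (Uap1l1 and Vat1, limma adjusted p = 0.0469), and 0 to 1 on leaving out each array, the 1 without BAPN replicate 1. Slide 2 alone called 5641. Unadjusted p under 0.05 was reached by 1632 (without BAPN replicate 4) to 4227 features on leaving out each array, and by 1682 and 1854 without vehicle replicates 4 and 2. With the replicate number as a block 0 were called and 1595 had an unadjusted p under 0.05. After subtraction of the group means, same-numbered arrays correlated at 0.42 (replicate 1), -0.03 (replicate 3) and 0.004 (replicate 4). Differently numbered vehicle and BAPN arrays reached 0.33. Vehicle replicate 1 and BAPN replicate 1 were each other's closest arrays, so whether the numbers pair the samples stays unsettled. The share of features with an interval inside 2-fold was 72.0% with the ATII arrays alone and 97.1% above the 75th percentile.

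The difference between cell types called 0 features under quantile scaling, the deposited table, normexp, the slide block, slide 2 alone, the replicate block and the trended prior, 2 with no filter, 90 above the 75th percentile and 112 on slide 1 alone.

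Of 119 genes named in lists or by rank, 12 had the opposite sign under some alternative, none called in a setting that turned it; outside slide 2 alone, the named genes called in any alternative were Uap1l1, Vat1 and Renbp. Loxl1 was -0.0077 under quantile scaling, -0.013 in the deposited table, -0.081 on slide 2, -0.066 with position correction and -0.001298 with the ATII arrays alone without BAPN replicate 4. Loxl2 was -0.036 in that last setting. Loxl3 was -0.063 with position correction, -0.00141 with the replicate block, -0.038 with the ATII arrays alone without BAPN replicate 4 and -0.042 with slide block and position. Loxl4 was 0.15, Fbln5 -0.006102 and Ctsz -0.027 on slide 2. On slide 1 Scgb3a2 was -0.30 and Ctsh -0.003701. Fabp5 was -0.032 with normexp. With position correction Ctsz was -0.062, Npc2 -0.007635 and Gla -0.047, and with the slide block as well -0.022, -0.008689 and -0.042; Gla was -0.009059 with the ATII arrays alone without BAPN replicate 4. On leaving out each array Loxl1 ranged from -0.048 to 0.074, Loxl2 from -0.036 to 0.19, Loxl3 from -0.038 to 0.053, Loxl4 from -0.21 to 0.14, Ctsh from -0.003944 to 0.30, Glb1 from -0.000946 to 0.13, Npc2 from -0.042 to 0.21 and Gla from -0.045 to 0.10. The cause was not tested. The median of the lysosome list was 0.22 to 0.41 over the alternatives, above 0 in all of them. Depth of signal limits the dimmest of 4 bins of features, where 33.2% of intervals lay inside 2-fold.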

Other observations

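These values were looked up after the data were seen and carry no test. A group of 27 probes linked by shared runs of 20 bases with probes of Hmgb1, which encodes an abundant chromatin protein with many gene copies, had the lower mean with BAPN in all 27. Of these, 22 had no gene symbol, and 24 lay above the 75th percentile, with log2 changes from -1.14 to -0.83. The median levels of those 24 were 3.38, 3.54, 4.43 and 4.73 in vehicle replicates 1 to 4 and 2.88, 2.97, 2.82 and 3.28 in BAPN replicates 1, 3, 4 and 5, so the groups did not overlap. In fibroblasts their median change was 0.70. The 6 Hmgb1 probes outside the group had changes from -0.78 to -0.06, and the brightest, which stands for the gene, one of -0.14. Which gene copies these probes read cannot be told from their sequences alone.

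In 20 features a single array exceeded the next highest by at least 4 on the log2 scale: 7 in BAPN replicate 1, 5 in BAPN replicate 3, 6 in BAPN replicate 5 and 1 each in vehicle replicates 1 and 3, all on slide 1. Zdhhc13 had a level of 9.45 in BAPN replicate 3, with 2.38 as the next highest, and Muc20 one of 7.22 in BAPN replicate 1, with 1.94 as the next.

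Crabp2, which carries retinoic acid, had levels of 1.54, 2.47, 3.21 and 3.97 with vehicle and 2.43, 3.92, 4.96 and 3.84 with BAPN, and correlated with Uap1l1 within the groups at r = 0.91; its groups overlapped widely.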
